A study of Mus musculus with 9 samples.

Results

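The ET libraries are 3 RNA-seq libraries of RAW264.7 cells titled LPS, and they are compared here with the 3 libraries titled Normal. Together they make 6 of the 9 libraries of the series. RAW264.7 is a mouse macrophage cell line, LPS is the lipopolysaccharide of the outer membrane of Gram-negative bacteria, and the Normal cells are taken as untreated from that title. The remaining 3 libraries, called M here, are titled LPS+Extract, the extract being one from Traditional Chinese Medicine that the labels do not name further. Libraries were chosen by column name, and genes were kept where the FPKM, the fragments counted on a gene relative to its length and to the depth of its library, was at least 1 in at least 3 of the 9 libraries. That left 11536 of the 26146 genes of the deposited table.

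The labels contradict themselves on the 2 treated groups. In the label of each sample titled LPS, the value column is named ET and the library is named M. In the label of each sample titled LPS+Extract, the value column is named M and the library is named ET. If the column names hold, the ET libraries had LPS and nothing else, and the M libraries had LPS together with the extract. If the library names hold, it is the other way round. No expression value was used to choose between these readings, so the groups are called ET and M throughout. Every difference between ET and Normal below is thus one between LPS and no treatment under the first reading, and one between LPS with the extract and no treatment under the second. The labels used here give no dose or duration of treatment and do not say whether replicates were separate cultures, so p-values measure the spread between these libraries, which may be technical. A single cell line stood in for macrophages in all groups.

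LPS is carried by CD14 to the receptor pair TLR4 and MD-2 on the macrophage surface. The adaptors MyD88 and TRIF then lead to the transcription factors NF-kB, AP-1 and IRF3, which switch on cytokines, chemokines and interferon beta, and secreted interferon acts back on the cell through STAT factors to raise antiviral genes. Macrophages treated in this way are also known to change glucose, lipid, iron and arginine metabolism and to slow their division.

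Total counts lay between 56921531 and 76242718 in the Normal libraries and between 55039858 and 62962615 in the ET libraries. A library in which a gene had no read was given a floor of 3 counts, or 0.0378 to 0.0555 CPM, which are counts relative to the library total, and such floors cover counting error only. The first principal component held 90.53% of the variance of the tested genes and separated Normal from both treated groups. On the second, which held 2.282%, ET replicate 3 lay at 7.22 and the other ET libraries at 14.7 and 17.1, with the M libraries between -13.7 and -11.5. Counts on mitochondrially encoded genes made up 4.39% to 4.61% of the Normal totals and 3.29% to 3.62% of the ET totals. No 2 libraries were alike enough to be repeats of one library. Below, levels are CPM scaled by TMM factors where 1 gene is compared between groups, and FPKM where genes are compared with each other. A gene is called where the edgeR quasi-likelihood test gave an adjusted p (Benjamini-Hochberg, over 11536 genes) under 0.05.

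The macrophage markers were present in both groups. Csf1r, the receptor for the growth factor M-CSF, was at 314 to 331 FPKM in Normal and 190.5 to 194 in ET. Lyz2 was at 953 to 1039.8 and 654 to 697, Cd68 at 357 to 372 and 474 to 502, and the lineage factor Spi1 at 98.3 to 103 and 71.3 to 78.2. Adgre1, which encodes F4/80, lay at 14.8 to 15.9 FPKM in Normal and 50.7 to 59.7 in ET. Mertk was listed at 0 in every Normal and ET library. Of the lymphocyte markers, 7 of 14 were in the table and 1, Ighm, passed the FPKM filter. Their summed level was 449.8 to 479 CPM in Normal and 53.02 to 56.4 in ET, almost all of it Ighm at means of 468 and 51.3. The others were near 0, and Cd79a (0.233 and 1.53), Cd79b (0.392 and 0.705) and Pax5 (0.021 and 0.593) had higher means in ET, untested. The granulocyte and mast cell markers summed to 0.331 to 0.53 CPM in Normal and 29.6 to 36.7 in ET, and 1 of the 8 in the table, S100a8, passed the filter. Prtn3 (0.298 and 0.142), Elane (0.0252 and 0) and Cpa3 (0.0563 and 0.00562) had lower means in ET, untested. S100a9 stayed near 0 (0 and 0.121), and Mpo, Camp and Kit had higher means in ET, untested. The fibroblast markers summed to 0.758 to 1.60 and 9.95 to 11.5 CPM, which came mostly from Lum (means of 0 and 8.13) and Dcn (0 and 1.53). Of that list Col1a2 (0.287 and 0.159), Col3a1 (0.221 and 0.109) and Pdgfrb (0.695 and 0.316) had lower means in ET, untested. The endothelial markers summed to 5.12 to 6.47 and 19.5 to 22.4, the erythroid and platelet markers to 0.139 to 0.848 and 1.64 to 2.04, and the epithelial markers to 0.0679 to 0.328 and 0.179 to 0.287. In each of these lists at most 1 gene passed the filter. Whether other cells contributed to any of these changes was not tested.

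In ET, 4037 genes were called higher than in Normal and 4066 lower, which is 35.0% and 35.2% of those tested (70.2% in either direction). The rises reached further than the falls. At least 2-fold higher were 1243 genes (10.8%) and at least 2-fold lower 605 (5.24%). At least 4-fold, the counts were 629 (5.45%) and 104 (0.902%), at least 16-fold 284 and 18, and at least 64-fold 164 and 3. The median log2 difference over all tested genes was -0.02, and 83.7% of them differed by less than 2-fold. The ranges of the Normal and ET libraries did not overlap for 8445 genes (73.2%), with ET above in 4163. The gene lists used below are described by their counts, to be read against these shares, and by their median log2 difference. Unless it is said otherwise, the genes named as the largest rises or falls of a list are those among its called members with a mean of at least 5 FPKM in the higher group.

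**Figure D1:**
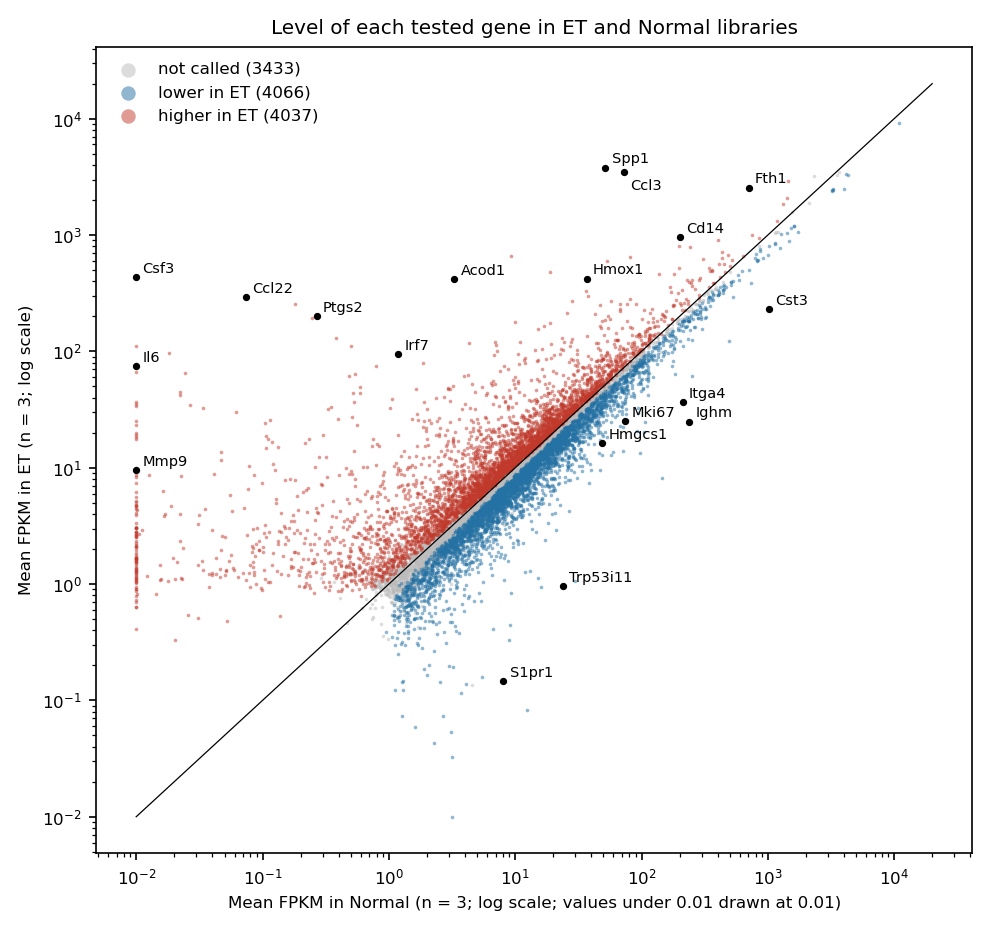
Mean FPKM of each of the 11536 tested genes in ET (vertical) against Normal (horizontal), both on log scales, with values under 0.01 drawn at 0.01, the line of equal level, and genes called higher (4037, red), lower (4066, blue) or not called (grey). Genes with almost no Normal expression form the column at the left, where Csf3 and Il6 were listed at 0 in Normal, while Spp1 and Ccl3 reached levels above those of the ferritin gene Fth1.

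The filter ties direction to the level in Normal at the low end. All 191 genes with a mean Normal FPKM under 0.1 were called higher, but a gene so low in Normal passed the filter only through the treated libraries and had to differ, so the filter fixed this direction. More widely, 597 of the tested genes were under 1 FPKM in every Normal library and passed only through treated libraries, and 567 of them were called higher. Where a list below holds 3 or more such members, their number is given, and its count of rises is to be read without them. On the other side, 169 tested genes were under 1 FPKM in every treated library and passed only through Normal. For these the filter favoured a fall, and the lists below hold at most 2 of them each. Of the 424 genes above 100 FPKM in Normal, 109 were called higher and 235 lower. Genes at least 2-fold higher in ET held 3.54% to 3.61% of the FPKM summed over all genes of the deposited table in the Normal libraries and 15.0% to 15.7% in the ET libraries. Genes at least 2-fold lower held 3.32% to 3.43% and 1.07% to 1.09%. These shares follow from the choice of the genes and carry no test.

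The 10 largest single gains of FPKM, predicted genes left aside, came from secreted proteins, ferritin, metabolic enzymes and surface proteins. Spp1, which encodes the secreted phosphoprotein osteopontin, had the largest gain of FPKM among the called genes. It stood at 50.2 to 54 FPKM in Normal and 3618 to 4069.6 in ET (log2 difference 6.27, SE 0.057, adjusted p = 1.81e-15). Ccl3, which encodes the chemokine MIP-1 alpha, followed at 66.4 to 75.9 FPKM in Normal and 3263 to 3689 in ET. Its neighbour Ccl4 was at 7.95 to 10.6 FPKM in Normal and 640.1 to 676 in ET. The iron-storage ferritin genes Fth1 and Ftl1 were among the 10 largest gains, the first at 686 to 717 FPKM in Normal and 2436 to 2648 in ET and the second at 1395 to 1487 FPKM in Normal and 2672 to 3068 in ET, although ferritin has many processed pseudogenes among which reads could have been split. The others were Cd14 at 195 to 206 FPKM in Normal and 909.96 to 997 in ET, the glycolytic enzyme Pkm at 1385 to 1463 FPKM in Normal and 2019 to 2119.8 in ET, the phospholipid-binding Anxa5 at 194 to 202 FPKM in Normal and 784 to 840.2 in ET, the polyamine enzyme Odc1 at 77.2 to 83.2 FPKM in Normal and 628 to 662 in ET and the antiviral membrane protein Ifitm3 at 49.5 to 58.3 FPKM in Normal and 572 to 619.9 in ET. For each of these 10 genes all ET libraries lay above all Normal libraries.

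The 10 largest losses of FPKM, predicted genes left aside, included 7 mitochondrially encoded genes, led by mt-Co1 at 10622 to 11185 FPKM in Normal and 8854 to 9445 in ET (log2 difference -0.17), and by mt-Cytb at 3804 to 4284 FPKM in Normal and 2207 to 2733 in ET (log2 difference -0.62). Among nuclear genes they were the secreted cysteine protease inhibitor Cst3, the elongation factor Eef1a1 and the chromatin-associated prothymosin gene Ptma. Cst3 fell from one of the most abundant Normal transcripts to a much lower level, 1007 to 1037 FPKM in Normal and 217 to 236 in ET (log2 difference -2.08, SE 0.041, adjusted p = 1.96e-13). Ptma fell by 0.65 on the log2 scale and Eef1a1 by 0.23.

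**Figure D2:**
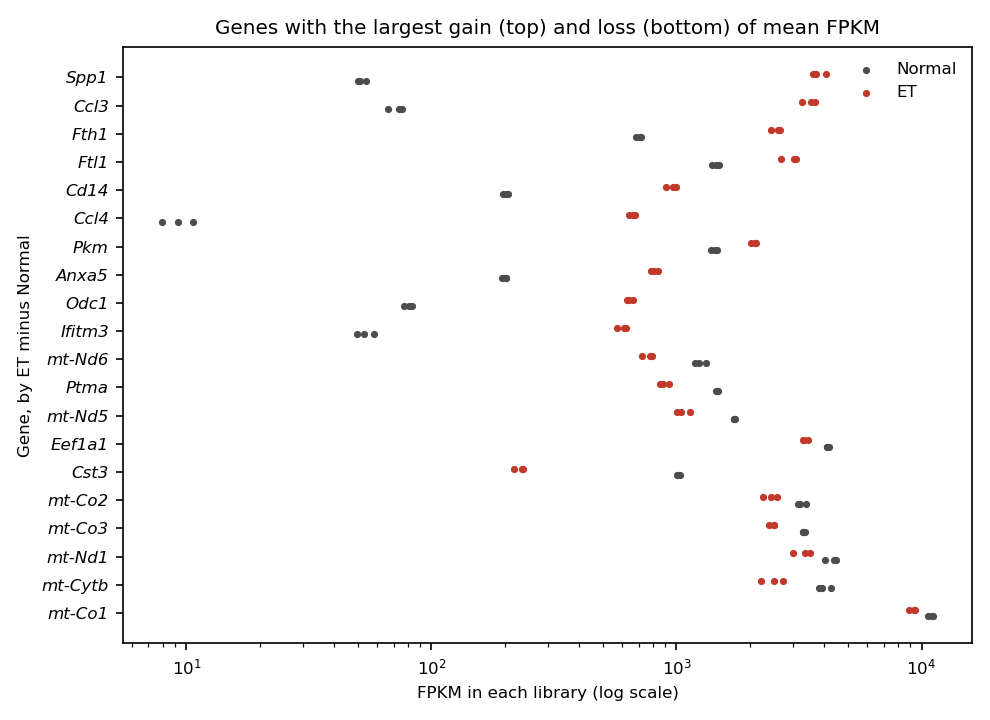
FPKM on a log scale in each Normal (grey) and ET (red) library for the 10 named genes with the largest gain and the 10 with the largest loss of mean FPKM in ET, each point 1 library, drawn in the order of ET minus Normal. Spp1 and Ccl3 moved by far more than their replicates spread, whereas the mitochondrially encoded genes at the bottom moved by less than 2-fold.

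The genes of LPS recognition moved in both directions. In the list of the LPS receptor and its proximal signalling, 13 of 28 tested members were called higher and 9 lower. Past 2-fold were 7 of the rises and 3 of the falls. The median log2 difference was 0.13 (0.05 to 0.21 over the alternative settings). Tlr4, the receptor itself, measured 37.7, 37.9 and 36.3 CPM in the Normal libraries and 35.2, 42.5 and 45.1 in the ET libraries (log2 difference 0.13, adjusted p = 0.159), and the ranges overlapped, with ET replicate 1 below the Normal libraries. Without ET replicate 1 the difference was 0.24 with an adjusted p of 0.00445, and over the 19 alternative settings adjusted p ran from 0.00445 to 0.611. With the M columns in place of ET it was 0.24 with an adjusted p of 0.0181, so the call of Tlr4 depends on the reading. Cd14 measured 352, 361 and 368 CPM in the Normal libraries and 1837, 1875 and 1724 in the ET libraries (log2 difference 2.33, SE 0.038, adjusted p = 5.44e-14), a 5.03-fold rise. Irak3, an inhibitory member of the IRAK kinases, rose the most (10.03 to 15.2 CPM in Normal and 70.4 to 74.3 in ET, log2 difference 2.56, SE 0.12), together with the signal-carrying Irak2 (22.3 to 22.9 CPM in Normal and 66.2 to 79.4 in ET, log2 difference 1.69, SE 0.064). Ticam2, the adaptor that bridges TLR4 to TRIF, fell (39.5 to 44.9 CPM in Normal and 14.7 to 16.3 in ET, log2 difference -1.44, SE 0.094).

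Of sensors of other microbial products, 12 of 19 tested members were called higher and 5 lower. Of those higher, 4 passed the filter only through treated libraries, Zbp1 and Ifih1 among them, so the filter set their direction. The cytosolic nucleic acid sensors Zbp1 and Ifih1 were among the largest rises. Zbp1, a sensor of Z-form nucleic acids that can start cell death, rose (0.0756 to 0.492 CPM in Normal and 38 to 42.4 in ET, log2 difference 7.16, SE 0.24, adjusted p = 3.44e-11). Ifih1, which encodes the RNA sensor MDA5, did so too (3.85 to 4.36 CPM in Normal and 74.6 to 83.6 in ET, log2 difference 4.25, SE 0.067). The C-type lectin receptor Clec4d rose too (9.06 to 14 CPM in Normal and 189 to 204 in ET, log2 difference 4.09, SE 0.11). The endosomal RNA receptor Tlr7 fell (192 to 206 CPM in Normal and 97.4 to 116 in ET, log2 difference -0.94, SE 0.075).

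Among the NF-kB subunits and inhibitors, 15 of 21 tested members were called higher and 1 lower, and the 3 that rose the most were adaptors and inhibitors rather than DNA-binding subunits. Nfkbia, which encodes the inhibitor I-kappa-B alpha and is itself an NF-kB target, measured 106, 103 and 108 CPM in the Normal libraries and 255, 259 and 243 in the ET libraries (log2 difference 1.26, SE 0.038, adjusted p = 1.26e-11). Tnfaip3, the ubiquitin-editing enzyme A20 that ends NF-kB signalling, measured 14.2, 13 and 12.5 CPM in the Normal libraries and 40.1, 38.1 and 40.2 in the ET libraries (log2 difference 1.57, SE 0.064, adjusted p = 2.41e-10). The ranges of both genes were well apart. The signalling adaptor Traf1 (10.8 to 12.8 CPM in Normal and 127 to 140.5 in ET, log2 difference 3.48, SE 0.064), the nuclear I-kappa-B protein Nfkbiz (9.7 to 14.5 CPM in Normal and 102 to 108 in ET, log2 difference 3.07, SE 0.11) and its relative Bcl3 (5.13 to 7.98 CPM in Normal and 48.5 to 53.1 in ET, log2 difference 2.97, SE 0.12) were the 3 largest rises. Birc2, a ubiquitin ligase of the TNF receptor complex, was the 1 member called lower, at 35.9 to 43.3 CPM in Normal and 29.5 to 35.5 in ET (log2 difference -0.33, SE 0.086). With the M columns in place of ET its log2 difference was -0.0763 and was not called (adjusted p = 0.443, against 0.000541 to 0.0273 in the other settings).

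Of the AP-1 and immediate-early factors, 19 of 20 tested members were called higher, all of them by at least 2-fold. A group of 7, Batf, Fosl1 and Myc among them, passed only through treated libraries, so the filter set their direction. The remaining 12 called higher reached 1 FPKM in at least 1 Normal library. Batf, an AP-1 family factor that pairs with IRF proteins, rose (0.272 to 0.429 CPM in Normal and 24.2 to 26.2 in ET, log2 difference 6.15, SE 0.14, adjusted p = 8.26e-13). Fosl1, another AP-1 subunit, rose (0.366 to 0.814 CPM in Normal and 40.1 to 45.9 in ET, log2 difference 6.04, SE 0.19). Myc rose similarly (0.272 to 0.757 CPM in Normal and 22.7 to 24.2 in ET, log2 difference 5.74, SE 0.27). Ier3, an early response gene with a part in survival, already had 19.4 to 23.9 CPM in Normal and reached 589.9 to 612 in ET (log2 difference 4.78, SE 0.065). Klf4, a zinc-finger factor of the monocyte lineage, was the 1 member that fell (12.3 to 15.5 CPM in Normal and 2.39 to 2.7 in ET, log2 difference -2.41, SE 0.14). It was under 1 FPKM in every treated library and passed only through Normal, so the filter set its direction.

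The interferon regulatory factors and JAK-STAT genes were split. Called higher were 11 of 16 tested members and lower 4. Irf7, the factor that amplifies type I interferon, measured 4.81, 4.16 and 5.09 CPM in the Normal libraries and 389, 405 and 382 in the ET libraries, a rise of 84.1-fold (log2 difference 6.39, SE 0.065, adjusted p = 2.8e-15). Irf9, which binds DNA together with STAT proteins after interferon, rose by far less (18.8 to 23.3 CPM in Normal and 69.3 to 76 in ET, log2 difference 1.76, SE 0.073). Irf1, a factor best known from interferon gamma signalling, fell (28.6 to 32.8 CPM in Normal and 13.9 to 16 in ET, log2 difference -1.01, SE 0.08).

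Genes that limit signalling also rose. Of the feedback phosphatases, mRNA decay factors and SOCS genes, 17 of 22 tested members were called higher, 15 of them at least 2-fold, and 5 lower. Without the 5 that passed only through treated libraries, Dusp5 among them, 12 of 17 were higher. The MAP kinase phosphatases Dusp5 (0.442 to 1.5 CPM in Normal and 80.9 to 90.8 in ET, log2 difference 6.6, SE 0.21) and Dusp4 (3.65 to 5.35 CPM in Normal and 129 to 149 in ET, log2 difference 4.91, SE 0.10) and the cytokine signalling inhibitor Socs3 (31.1 to 34.2 CPM in Normal and 367 to 409 in ET, log2 difference 3.54, SE 0.056) led the rises. Zfp36l1, which promotes decay of mRNAs with AU-rich elements, fell (27.4 to 32.2 CPM in Normal and 16.6 to 20.4 in ET, log2 difference -0.73, SE 0.099).

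Most tested cytokines and growth factors rose. Of 27 tested members, 22 were called higher, 21 of them at least 2-fold and 20 at least 4-fold, and 4 lower. Another 10 of the 37 in the table did not pass the filter, Il12b among them. Of the rises, 15 were of members that passed only through treated libraries, so the filter set their direction. Of the 11 that reached 1 FPKM both in a Normal and in a treated library, 7 were higher and 3 lower. A total of 6 members had 0 counts in all 3 Normal libraries. Csf3, which encodes the granulocyte growth factor G-CSF, had no read in Normal and 685, 712 and 612 CPM in the ET libraries, at least 13159-fold higher (adjusted p = 4.63e-14). Il6 likewise had none and then 168, 214 and 215 CPM, at least 3911-fold higher (adjusted p = 2.68e-12). Il11, of the same cytokine family, had none and then 19.5, 24.3 and 22.1 CPM, at least 431-fold higher (adjusted p = 5.9e-12). These 3 were unread in every Normal library and read in every ET library.

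Il1b, which encodes the precursor of interleukin 1 beta, measured 0.458, 0.529 and 0.509 CPM in the Normal libraries and 389, 435 and 387 in the ET libraries (log2 difference 9.65, SE 0.092, adjusted p = 1.81e-15). Tnf was already on in Normal and measured 56.8, 60.3 and 67.8 CPM in the Normal libraries and 572, 612 and 584 in the ET libraries (log2 difference 3.26, SE 0.066, adjusted p = 2.62e-13). The rise of Tnf was 9.56-fold. Il10, which encodes an anti-inflammatory cytokine, measured 0.126, 0 and 0 CPM in the Normal libraries and 4.77, 5.12 and 4.23 in the ET libraries (log2 difference 6.81, SE 0.53, adjusted p = 1.36e-07), with 8 counts in all in Normal, and stayed far below the others. Tnfsf9, the ligand of 4-1BB, was named as the largest fall among members with at least 5 FPKM (45.1 to 49.4 CPM in Normal and 23 to 28.8 in ET, log2 difference -0.86, SE 0.08), while its receptor gene Tnfrsf9 rose as given further on.

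All 12 tested chemokines were called higher, 10 of them at least 4-fold. For 8 of the 12 the filter set this direction, since they passed only through treated libraries, which leaves 4 that reached 1 FPKM in a Normal library. Another 8 of the 20 in the table did not pass the filter. Ccl2, which attracts monocytes, measured 0.174, 0.176 and 0.339 CPM in the Normal libraries and 327, 332 and 302 in the ET libraries (log2 difference 10.47, SE 0.11, adjusted p = 2.96e-15). Ccl5, which attracts T cells and monocytes, measured 0.521, 0.391 and 0.255 CPM in the Normal libraries and 138, 154 and 119.6 in the ET libraries (log2 difference 8.44, SE 0.17, adjusted p = 2.19e-13). Both went from near the floor to more than 100 CPM in every ET library. Cxcl10, an interferon-responsive chemokine, measured only 0.631, 0.593 and 1.04 CPM in the Normal libraries and 2.86, 1.9 and 2.23 in the ET libraries (log2 difference 1.64, SE 0.24, adjusted p = 5.42e-05), so its ranges were apart but its level stayed low. The neutrophil attractants Cxcl2 and Cxcl3 stood at 0 to 0.0848 CPM in Normal and 204 to 226 in ET (log2 difference 12.05, SE 0.15) and at 0 counts in Normal and 30.7 to 36.3 CPM in ET, at least 645-fold higher. Ccl22, a ligand of CCR4, rose (0.0631 to 0.39 CPM in Normal and 666 to 834 in ET, log2 difference 12.03, SE 0.21).

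The promoter of Il6 is shown because the gene went from no read to 168 to 215 CPM, and that of Cxcl10 because it holds several of the same motifs although the gene stayed low. Each window is the 250 bases before the RefSeq start site on GRCm38.p6, 5′ to 3′ on the strand of the gene, with capitals on matches to the motifs given with the counts over promoters further below. For the deposited coordinates no build is named in the labels or file headers.
Il6, chr5:30012864-30013113, plus strand: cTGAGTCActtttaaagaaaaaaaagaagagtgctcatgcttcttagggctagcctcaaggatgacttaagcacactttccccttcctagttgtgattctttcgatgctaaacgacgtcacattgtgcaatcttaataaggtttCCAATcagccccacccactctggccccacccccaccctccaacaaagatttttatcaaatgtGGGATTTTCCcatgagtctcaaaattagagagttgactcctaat
Cxcl10, chr5:92348890-92349139, minus strand: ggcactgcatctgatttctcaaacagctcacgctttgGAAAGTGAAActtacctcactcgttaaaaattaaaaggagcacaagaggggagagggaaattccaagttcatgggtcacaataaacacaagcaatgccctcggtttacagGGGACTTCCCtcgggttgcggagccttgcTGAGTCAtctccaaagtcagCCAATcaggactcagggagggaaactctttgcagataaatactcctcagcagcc
In Il6 the capitals mark an AP-1 match (TGAGTCA), then a box of CCAAT and a kB match (GGGATTTTCC), the kB match being the one nearest to the start site. In Cxcl10 they mark an ISRE match (GAAAGTGAAA), a kB match (GGGACTTCCC), an AP-1 match and a CCAAT box. A match describes the letters and shows no binding. The window of Nos2 is not shown.

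**Figure D3:**
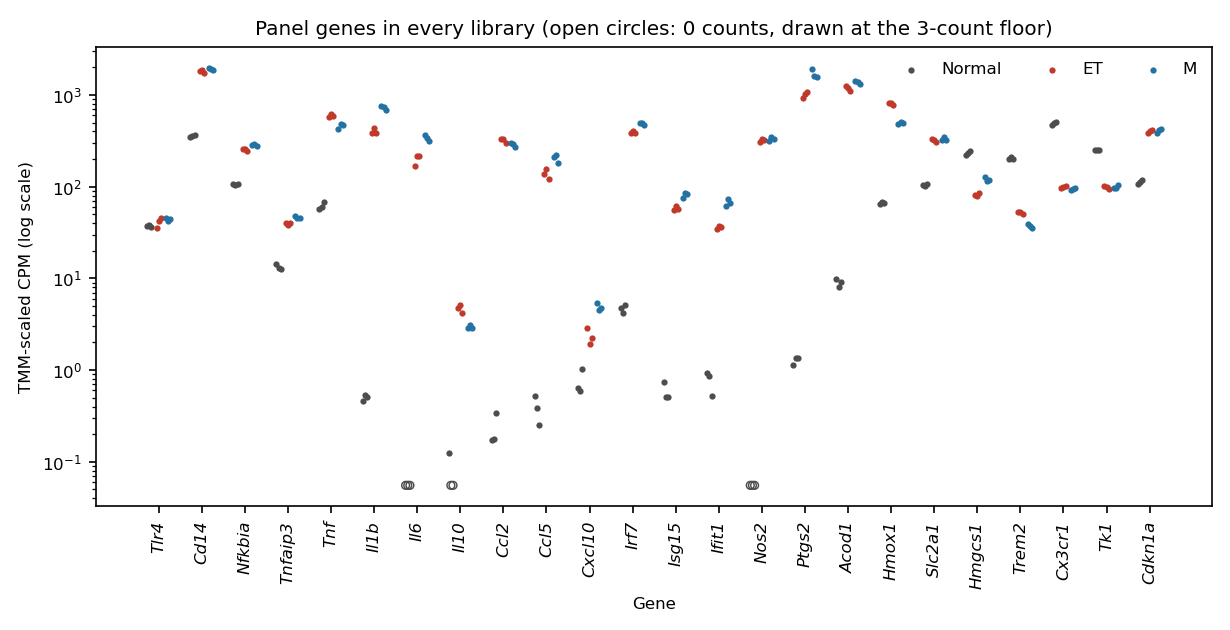
TMM-scaled CPM on a log scale of 24 genes of a panel in each Normal (grey), ET (red) and M (blue) library, with 0 counts drawn as open circles at the largest 3-count floor of any library. Il6 and Nos2 had no read in Normal, Tlr4 overlapped between Normal and ET, and Hmgcs1, Trem2, Cx3cr1 and Tk1 were lower in every ET library than in every Normal library.

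Receptors for these messengers did not move as one. Of the cytokine receptors, 13 of 26 tested members were called higher and 12 lower (median 0.05, and -0.03 to 0.08 over the alternative settings). Tnfrsf9, which encodes the co-stimulatory receptor 4-1BB, rose (0 to 0.0631 CPM in Normal and 45.8 to 61.2 in ET, log2 difference 11.22, SE 0.28, adjusted p = 2.04e-12), resting on 4 counts in Normal. The filter set this direction, since Tnfrsf9 passed only through treated libraries. Tnfrsf1b, the second TNF receptor, rose (26.3 to 29.1 CPM in Normal and 461 to 538 in ET, log2 difference 4.18, SE 0.072). The common gamma chain Il2rg rose by less (74.3 to 79.1 CPM in Normal and 174 to 192 in ET, log2 difference 1.23, SE 0.062). The TGF-beta receptor Tgfbr1 fell (66.4 to 70.9 CPM in Normal and 24.1 to 27 in ET, log2 difference -1.41, SE 0.095). Csf1r, the receptor that keeps macrophages alive, fell as well (1874 to 1971 CPM in Normal and 1203 to 1215 in ET, log2 difference -0.66, SE 0.028).

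Among the chemoattractant, purinergic and lipid-mediator receptors, 16 of 22 tested members were called higher and 5 lower, and 9 of the rises were of members that passed only through treated libraries. Ccr7, which guides cells to lymph nodes, had no read in Normal and 11.2, 14.1 and 10.6 CPM in the ET libraries, at least 235-fold higher (adjusted p = 1.62e-10). The complement receptor C3ar1 rose (1.76 to 2.92 CPM in Normal and 196 to 213 in ET, log2 difference 6.5, SE 0.11). So did the chemerin receptor Ccrl2 (0.475 to 0.933 CPM in Normal and 24.1 to 31.6 in ET, log2 difference 5.3, SE 0.18). Cx3cr1, the fractalkine receptor of resident macrophages, measured 474, 489 and 511 CPM in the Normal libraries and 95.5, 98.9 and 103 in the ET libraries (log2 difference -2.31, SE 0.043, adjusted p = 1.2e-13), a 4.96-fold fall with no overlap. S1pr1, which guides cells out of tissues along sphingosine 1-phosphate, fell furthest (23.9 to 27.9 CPM in Normal and 0.325 to 0.665 in ET, log2 difference -5.7, SE 0.26).

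In the list of Fc gamma receptors and complement, 7 of 10 tested members were called higher and 1 lower, and 3 of the rises were of members that passed only through treated libraries. The activating Fcgr4 (0.543 to 1.21 CPM in Normal and 22.2 to 26.1 in ET, log2 difference 4.59, SE 0.19) and the inhibitory Fcgr2b (4.28 to 5.24 CPM in Normal and 65.2 to 68.4 in ET, log2 difference 3.81, SE 0.08) both rose. Properdin, encoded by Cfp and a stabiliser of the alternative complement pathway, rose (43.5 to 50.6 CPM in Normal and 394 to 418 in ET, log2 difference 3.14, SE 0.056).

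Adhesion and matrix genes rose in 19 of 20 tested members, 14 of them at least 2-fold, and in 15 of 16 without those that passed only through treated libraries. Mmp9, a gelatinase, rose (0 to 0.0504 CPM in Normal and 34.7 to 39.97 in ET, log2 difference 10.19, SE 0.20). So did the integrin Itgb7 (1.41 to 2.02 CPM in Normal and 122 to 142 in ET, log2 difference 6.25, SE 0.11). The protease inhibitor Timp1 rose as well (1.93 to 2.35 CPM in Normal and 35.9 to 42.2 in ET, log2 difference 4.15, SE 0.095). Itga4, the alpha 4 integrin chain that pairs with Itgb7 or Itgb1, was the 1 member called lower. It measured 3099, 3126 and 2966 CPM in the Normal libraries and 500.1, 543 and 632 in the ET libraries (log2 difference -2.46, SE 0.071, adjusted p = 7.6e-12), with every ET library far below Normal.

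Type I interferon effectors rose in 39 of 42 tested members, 38 of them at least 2-fold, and none was called lower. Without the 12 that passed only through treated libraries, 27 of 30 rose. The 3 that were not called were Apobec3, Ifi27l2a and Ifitm2, named after their values were seen. Isg15, a ubiquitin-like antiviral protein, measured 0.742, 0.504 and 0.509 CPM in the Normal libraries and 55.6, 60.9 and 56.8 in the ET libraries (log2 difference 6.63, SE 0.12, adjusted p = 7.88e-14). Ifit1, which binds viral RNA lacking the host cap, measured 0.931, 0.87 and 0.526 CPM in the Normal libraries and 34.4, 36.9 and 36.6 in the ET libraries (log2 difference 5.51, SE 0.13, adjusted p = 1.66e-12). Both were under 1 CPM in each Normal library and above 30 in each ET library. Trim30a (0.395 to 0.594 CPM in Normal and 61.2 to 74.4 in ET, log2 difference 7.15, SE 0.13), Ifi44l (0.17 to 0.221 CPM in Normal and 19.5 to 25.1 in ET, log2 difference 6.81, SE 0.15) and Rsad2, which encodes the antiviral enzyme viperin (0.204 to 0.316 CPM in Normal and 25.8 to 29 in ET, log2 difference 6.74, SE 0.12), were the largest rises. Trim30a and several other members belong to families of near-identical copies, whose reads could have been split.

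All 8 tested Schlafens were called higher, 3 of them having passed only through treated libraries, led by Slfn5 (3.12 to 3.85 CPM in Normal and 52.3 to 60.7 in ET, log2 difference 3.97, SE 0.091), Slfn2 (10.8 to 14.6 CPM in Normal and 175 to 192 in ET, log2 difference 3.9, SE 0.094) and Slfn10-ps. All 10 tested guanylate-binding proteins and immunity-related GTPases, which attack the compartments of intracellular microbes, were called higher, 9 of them at least 4-fold, but 7 passed only through treated libraries. Gbp3 rose (0.305 to 0.504 CPM in Normal and 36.3 to 40.3 in ET, log2 difference 6.49, SE 0.12). Igtp rose by less (2.81 to 3.83 CPM in Normal and 32.5 to 35.7 in ET, log2 difference 3.31, SE 0.11), as did Irgm1 (17.5 to 19.4 CPM in Normal and 149 to 164 in ET, log2 difference 3.1, SE 0.053). Another 9 of the 19 in the table did not pass the filter. Of the PARP family 8 of 14 tested members were called higher, with the interferon-responsive Parp14 first (15 to 17.8 CPM in Normal and 69.1 to 83.2 in ET, log2 difference 2.22, SE 0.088), and 2 lower, with the DNA-repair enzyme Parp1 first (427 to 429.7 CPM in Normal and 266 to 270.3 in ET, log2 difference -0.67, SE 0.031). The TRIM proteins were not of one direction, 12 of 29 higher, 3 of these through treated libraries only, and 11 lower.

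The Ifit1 promoter is printed for the interferon effectors, on the terms given for Il6.
Ifit1, chr19:34640639-34640888, plus strand: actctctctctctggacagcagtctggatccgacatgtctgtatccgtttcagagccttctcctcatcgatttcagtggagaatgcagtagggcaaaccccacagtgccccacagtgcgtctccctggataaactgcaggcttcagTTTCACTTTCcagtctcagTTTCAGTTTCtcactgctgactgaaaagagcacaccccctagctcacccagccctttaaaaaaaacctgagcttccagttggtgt
The capitals mark 2 ISRE matches on the minus strand (read here as TTTCACTTTC and TTTCAGTTTC), both within bases 76 to 104 before the start site.

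Enzymes that make inflammatory mediators included some of the largest single changes, but their pathways did not rise as a whole. Nos2, which makes nitric oxide from arginine, had no read in Normal and 307, 329 and 324 CPM in the ET libraries, at least 6284-fold higher (adjusted p = 1.11e-14). In the list of nitric oxide, arginine and tetrahydrobiopterin genes, 6 of 11 tested members were called higher and 3 lower. Of the rises, 2 were of members that passed only through treated libraries, Nos2 among them, so the filter set their direction. Gch1, the first enzyme of the cofactor tetrahydrobiopterin, rose (7.55 to 9.35 CPM in Normal and 46.2 to 53.1 in ET, log2 difference 2.57, SE 0.09). Pts, the next enzyme of that route, fell (39.2 to 42.8 CPM in Normal and 19.9 to 22 in ET, log2 difference -0.99, SE 0.078). Odc1, which makes putrescine from ornithine, rose (272 to 295 CPM in Normal and 2339 to 2467 in ET, log2 difference 3.08, SE 0.041).

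Ptgs2, the inducible cyclooxygenase COX-2, measured 1.14, 1.35 and 1.36 CPM in the Normal libraries and 920.3, 1016 and 1062 in the ET libraries (log2 difference 9.6, SE 0.11, adjusted p = 4.39e-15), a 777-fold rise. In the same list the constitutive cyclooxygenase Ptgs1 fell (189 to 202 CPM in Normal and 51.5 to 58 in ET, log2 difference -1.84, SE 0.051), and so did the leukotriene enzymes Alox5 (81.2 to 83.7 CPM in Normal and 16.3 to 20.1 in ET, log2 difference -2.2, SE 0.083) and Ltc4s (13.7 to 15.3 CPM in Normal and 3.14 to 3.55 in ET, log2 difference -2.11, SE 0.15). In all, 4 of 14 prostaglandin and leukotriene enzymes were called higher and 6 lower.

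Acod1, which draws cis-aconitate from the tricarboxylic acid (TCA) cycle to make itaconate, measured 9.85, 7.97 and 9.04 CPM in the Normal libraries and 1266, 1190.3 and 1109 in the ET libraries (log2 difference 7.06, SE 0.082, adjusted p = 4.46e-15). Genes of the cycle leaned lower, with 17 of 26 tested members of the list called lower and 4 higher. Idh2 (248 to 259 CPM in Normal and 80.2 to 84.7 in ET, log2 difference -1.61, SE 0.041), the fumarase gene Fh1 (237 to 260.3 CPM in Normal and 116 to 133 in ET, log2 difference -1.0, SE 0.054) and Idh3g (170.02 to 187 CPM in Normal and 97.7 to 109 in ET, log2 difference -0.76, SE 0.053) fell the most. The fall of Idh2 was 3.05-fold and the rise of Acod1 133-fold.

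Glycolysis and glucose uptake rose in 20 of 26 tested members, with 5 lower and a median of 0.59. Slc2a1, the glucose transporter GLUT1, measured 104, 101 and 108 CPM in the Normal libraries and 328, 324 and 310.2 in the ET libraries (log2 difference 1.62, SE 0.041, adjusted p = 2.38e-12). The hexokinase Hk3 rose (23.7 to 26.3 CPM in Normal and 217 to 227 in ET, log2 difference 3.13, SE 0.048). The enolase Eno2 also rose (3.33 to 4.6 CPM in Normal and 30.2 to 33.4 in ET, log2 difference 2.97, SE 0.11). Slc2a6, of the same transporter family as GLUT1, fell (207 to 219.9 CPM in Normal and 97.9 to 104 in ET, log2 difference -1.1, SE 0.041). The pentose phosphate and NADPH enzymes went the other way, 8 of 12 called lower and 3 higher, with Rpia lowest (50.5 to 52.7 CPM in Normal and 21.1 to 23.3 in ET, log2 difference -1.19, SE 0.06) and malic enzyme Me1 highest (72.4 to 79.7 CPM in Normal and 158 to 161 in ET, log2 difference 1.08, SE 0.043). Of the 8 tested subunits of NADPH oxidase, which makes superoxide, 4 were called lower, led by the catalytic Cybb (655 to 687 CPM in Normal and 257 to 282 in ET, log2 difference -1.34, SE 0.053) and the cytosolic Ncf1 (645 to 687 CPM in Normal and 319 to 337 in ET, log2 difference -1.03, SE 0.038), and 3 higher.

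Nucleotide genes were mixed, 9 of 20 pyrimidine and deoxynucleotide genes higher and 8 lower. Upp1, which splits uridine into uracil and ribose 1-phosphate, had no read in Normal and 76.8 to 83.9 CPM in ET, at least 1558-fold higher (adjusted p = 5.03e-13). Since Upp1 passed only through treated libraries, the filter set its direction. Tk1, the thymidine kinase of dividing cells, measured 251, 249 and 254 CPM in the Normal libraries and 102, 98.2 and 94.3 in the ET libraries (log2 difference -1.36, SE 0.042, adjusted p = 1.71e-11). The ribonucleotide reductase subunit Rrm2 rose a little (232 to 237 CPM in Normal and 329 to 348 in ET, log2 difference 0.52, SE 0.033).

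Cholesterol synthesis fell as a block. Of its 24 tested genes, 23 were called lower against 35.2% of all genes, 7 of them at least 2-fold, and the median was -0.79. Hmgcs1, which makes HMG-CoA at the head of the mevalonate route, measured 221, 233 and 246 CPM in the Normal libraries and 81.8, 78.5 and 85.3 in the ET libraries (log2 difference -1.51, SE 0.052, adjusted p = 4.89e-11). Mvd, a later enzyme of the same route, fell as well (127 to 133 CPM in Normal and 44 to 48.4 in ET, log2 difference -1.49, SE 0.046). The 1 member called higher, Hsd17b7, differed by 0.11 on the log2 scale at an adjusted p of 0.0451 and lost its call when any Normal library, ET replicate 3, M replicate 1 or M replicate 2 was left out, among other settings. Fatty acid synthesis and desaturation genes were lower in 13 of 20 tested members and higher in 5. The desaturases Scd1 (461 to 482 CPM in Normal and 173 to 178 in ET, log2 difference -1.44, SE 0.035), Fads1 (362 to 381 CPM in Normal and 167 to 170.1 in ET, log2 difference -1.15, SE 0.035) and Fads2 (571 to 602 CPM in Normal and 259 to 278 in ET, log2 difference -1.12, SE 0.039) fell the most. The elongation-cycle enzyme Hacd2 rose (96.5 to 107 CPM in Normal and 234 to 251 in ET, log2 difference 1.25, SE 0.045).

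The promoter of Hmgcs1, the cholesterol gene with the largest fall, is printed on the same terms.
Hmgcs1, chr13:119690101-119690350, plus strand: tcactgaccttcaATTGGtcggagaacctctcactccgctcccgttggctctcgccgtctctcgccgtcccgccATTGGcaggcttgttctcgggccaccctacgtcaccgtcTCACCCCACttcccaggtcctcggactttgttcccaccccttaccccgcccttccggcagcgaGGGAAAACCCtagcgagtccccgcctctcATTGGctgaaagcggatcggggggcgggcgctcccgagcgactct
Its capitals mark a sterol-response match (TCACCCCAC), 3 CCAAT boxes read as ATTGG and a kB match on the minus strand (GGGAAAACCC), in a gene that fell.

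Of genes that take up or store lipid, 14 of 19 tested members were called higher and 2 lower. Without the 4 that passed only through treated libraries, 10 of 15 were higher. The fatty acid binding protein Fabp4 rose (0 to 0.136 CPM in Normal and 29.1 to 32.8 in ET, log2 difference 8.56, SE 0.26). The scavenger receptor Cd36 rose (1.36 to 2.57 CPM in Normal and 237 to 261 in ET, log2 difference 6.93, SE 0.14), beside Spp1. Trem2, a lipid receptor of tissue macrophages, measured 201, 211 and 202 CPM in the Normal libraries and 52.9, 52.4 and 50.2 in the ET libraries (log2 difference -1.98, SE 0.045, adjusted p = 7.22e-13), a 3.96-fold fall without overlap. Genes of sterol export and storage were split, 6 of 18 higher and 9 lower. The lysosomal lipase Lipa fell (577 to 604 CPM in Normal and 357 to 363 in ET, log2 difference -0.71, SE 0.033). The sterol carrier Npc2 rose (165 to 177 CPM in Normal and 309 to 356 in ET, log2 difference 1.0, SE 0.054).

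Stress programmes rose in part. Of the NRF2 targets and thiol systems, 19 of 34 tested members were called higher and 7 lower. The median was 0.23, and 0.0952 with the M columns in place of ET. Hmox1, which breaks down heme, measured 65.2, 67.6 and 67.1 CPM in the Normal libraries and 815, 819 and 783 in the ET libraries (log2 difference 3.6, SE 0.039, adjusted p = 3.54e-15), a 12.1-fold rise. The aldo-keto reductase Akr1b8 (13.8 to 16.4 CPM in Normal and 286 to 299 in ET, log2 difference 4.23, SE 0.063) and the cystine transporter Slc7a11 (27.2 to 28.2 CPM in Normal and 226 to 245 in ET, log2 difference 3.08, SE 0.05) rose as well. Bach1, a repressor of NRF2 targets, fell (33.3 to 37 CPM in Normal and 12.1 to 16.2 in ET, log2 difference -1.3, SE 0.097).

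Heme, iron and metal genes rose in 18 of 24 tested members and fell in 5. Lcn2, which binds the iron carriers of bacteria, had no read in Normal and 230.1, 230.1 and 213 CPM in the ET libraries, at least 4408-fold higher (adjusted p = 1.91e-13). Lcn2 passed only through treated libraries, so the filter set its direction. The phagosomal metal transporter Slc11a1 rose (28.5 to 33.1 CPM in Normal and 289 to 314 in ET, log2 difference 3.28, SE 0.065). The zinc importer Slc39a10 fell (74.4 to 84.1 CPM in Normal and 39.6 to 46 in ET, log2 difference -0.94, SE 0.068).

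ATF4 targets rose in 17 of 26 tested members, with 7 lower. The pseudokinase Trib3 (2.56 to 2.66 CPM in Normal and 15.2 to 17 in ET, log2 difference 2.61, SE 0.11), the glutathione-degrading Chac1 (2.6 to 4.48 CPM in Normal and 10.9 to 11.6 in ET, log2 difference 1.79, SE 0.18) and the factor Atf5 (11.8 to 15.1 CPM in Normal and 43.3 to 45.9 in ET, log2 difference 1.76, SE 0.088) led. The mitochondrial serine enzyme Shmt2 fell (557 to 592 CPM in Normal and 375 to 398 in ET, log2 difference -0.57, SE 0.037). Of the unfolded protein response, 14 of 23 were called higher and 4 lower. The median was 0.13, and 0.299 with the M columns in place of ET. Ppp1r15a, which restarts translation after stress, rose (14.4 to 15.5 CPM in Normal and 35.4 to 42.8 in ET, log2 difference 1.38, SE 0.079). The response's own factor Xbp1 fell (316 to 340.5 CPM in Normal and 182 to 195 in ET, log2 difference -0.81, SE 0.039). Among heat shock chaperones, 14 of 22 were called higher and 2 lower, with Hspa1b the largest named rise (5.71 to 7.11 CPM in Normal and 17.8 to 21 in ET, log2 difference 1.56, SE 0.11), a gene with a near-identical copy.

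Division genes were lower. Of 42 tested genes of G1/S and DNA replication 33 were called lower and 1 higher, and of 42 of G2/M and mitosis 35 lower and 1 higher. Most of these falls were under 2-fold, and the medians were -0.38 and -0.44. The transcription factor E2f2 (60.7 to 64.6 CPM in Normal and 21.4 to 26 in ET, log2 difference -1.42, SE 0.078), the helicase subunits Gins3 (88.5 to 90.2 CPM in Normal and 36.6 to 41.3 in ET, log2 difference -1.2, SE 0.056) and Gins1, and on the mitotic side Mki67, which encodes the proliferation antigen Ki-67 (747 to 788 CPM in Normal and 237 to 316 in ET, log2 difference -1.48, SE 0.086), Cenpf and Nusap1 fell the most. Cdkn1a, the CDK inhibitor p21, measured 106, 113 and 119 CPM in the Normal libraries and 387, 402 and 412 in the ET libraries (log2 difference 1.83, SE 0.052, adjusted p = 6.28e-12). Another CDK inhibitor, Cdkn1b, fell (60.7 to 62.3 CPM in Normal and 27.2 to 35.5 in ET, log2 difference -1.02, SE 0.09), as did Skp2, part of the ubiquitin ligase that degrades it (106 to 114 CPM in Normal and 45.4 to 49.5 in ET, log2 difference -1.23, SE 0.063). In bulk RNA, fewer cells in a phase of the cycle and less of a transcript per cell cannot be told apart.

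The p53 targets were higher in 17 of 24 tested members and lower in 5, and 3 of those higher passed only through treated libraries. The polo-like kinase Plk2 rose (0.458 to 0.568 CPM in Normal and 111 to 132 in ET, log2 difference 7.85, SE 0.12). The stress gene Gadd45b rose (2.7 to 3.35 CPM in Normal and 38.5 to 40.4 in ET, log2 difference 3.66, SE 0.086), as did Mdm2, the ligase that degrades p53 (58.5 to 65 CPM in Normal and 220.2 to 261 in ET, log2 difference 1.92, SE 0.063). Trp53i11 fell (89 to 93 CPM in Normal and 3.35 to 4.82 in ET, log2 difference -4.56, SE 0.12). Of survival and cell death genes, 19 of 26 were called higher and 5 lower. The largest named rises were of BCL2-family survival genes, Bcl2a1a (1.37 to 1.85 CPM in Normal and 30.4 to 34.9 in ET, log2 difference 4.37, SE 0.11), Bcl2l1, which encodes BCL-XL (18.7 to 19.7 CPM in Normal and 172 to 183 in ET, log2 difference 3.2, SE 0.042), and Bcl2a1b. The Bcl2a1 copies are close enough for reads to be split. Casp2 fell (67.2 to 76.7 CPM in Normal and 41.4 to 41.9 in ET, log2 difference -0.79, SE 0.055). In the inflammasome list 9 of 15 were called higher and 4 lower. Casp4, the mouse caspase-11 that senses cytosolic LPS, rose (5.41 to 8.65 CPM in Normal and 26.8 to 33.1 in ET, log2 difference 2.13, SE 0.14). The sensor Nlrp3 rose too (57.5 to 58.5 CPM in Normal and 134 to 148 in ET, log2 difference 1.31, SE 0.054). The ATP receptor P2rx7, which can trigger NLRP3, fell (298 to 312 CPM in Normal and 159 to 163 in ET, log2 difference -0.92, SE 0.034).

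Genes of class I antigen presentation rose in 15 of 20 tested members, with 3 lower and 13 of the rises at least 2-fold (median 1.21). H2-M3 (7.86 to 9.47 CPM in Normal and 63.2 to 72.4 in ET, log2 difference 2.96, SE 0.081), H2-T23 (23.4 to 24.7 CPM in Normal and 122 to 134 in ET, log2 difference 2.42, SE 0.045) and H2-T24, all non-classical class I genes of a family with near-identical copies, rose the most. Of the immunoproteasome subunits, Psmb8 rose (43.1 to 46.1 CPM in Normal and 92.6 to 98 in ET, log2 difference 1.12, SE 0.047). Psmb10 and Psmb9 fell, Psmb10 the more (49.5 to 53.8 CPM in Normal and 33.8 to 37.6 in ET, log2 difference -0.54, SE 0.059). In the class II, co-stimulation and checkpoint list, 9 of 15 were called higher and 5 lower, and 3 of the rises were of members that passed only through treated libraries. The co-stimulatory Cd40 (0.693 to 1.45 CPM in Normal and 26.7 to 33.2 in ET, log2 difference 4.75, SE 0.19) and Cd80 (2.41 to 4.24 CPM in Normal and 60.5 to 67.3 in ET, log2 difference 4.35, SE 0.15) and the checkpoint ligand Cd274, or PD-L1 (2.32 to 2.69 CPM in Normal and 36.4 to 41.9 in ET, log2 difference 3.98, SE 0.085), rose. The checkpoint gene Vsir fell (98.1 to 106 CPM in Normal and 70.6 to 73.7 in ET, log2 difference -0.49, SE 0.054).

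Of 20 tested macrophage identity genes, 10 were called lower and 6 higher. Tfeb, a factor that drives lysosomal genes, fell the most (28.9 to 30.7 CPM in Normal and 7.45 to 8.18 in ET, log2 difference -1.92, SE 0.11), followed by Runx1 (109 to 121 CPM in Normal and 55.9 to 62.1 in ET, log2 difference -0.96, SE 0.054). Of the alternative activation markers, 7 of 8 tested were called higher, namely Ccl22, Ccl17, Il10, Tgm2, Il4ra, Irf4 and Cd200r1, and Klf4 fell. For 5 of the 7 the filter set the direction, since they passed only through treated libraries. The filter also set the fall of Klf4, which passed only through Normal. Another 8 of the 16 in the table did not pass the filter, among them the markers Arg1 and Mrc1. All 7 tested osteoclast genes were called higher, with Mmp9 first, then the acid phosphatase Acp5 (3.11 to 4.12 CPM in Normal and 59.2 to 68.8 in ET, log2 difference 4.19, SE 0.097) and the fusion receptor Dcstamp (6.2 to 7.94 CPM in Normal and 40.1 to 40.4 in ET, log2 difference 2.49, SE 0.087). Ighm, the immunoglobulin mu gene that carried the lymphocyte sum, fell (449 to 479 CPM in Normal and 49.3 to 53.1 in ET, log2 difference -3.19, SE 0.044). S100a8, which carried the granulocyte sum, rose (0 to 0.0504 CPM in Normal and 28.6 to 35.6 in ET, log2 difference 10.52, SE 0.27). It passed only through treated libraries, so the filter set its direction as well. In bulk libraries a change in the number of cells of a type and one in RNA per cell cannot be told apart.

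Genes expressed at 5 FPKM or more in ET that fell furthest were, beside Ighm, Itga4, Cx3cr1 and the others above, Ighj1 (7.59 to 8.69 CPM in Normal and 0.354 to 0.61 in ET, log2 difference -4.04, SE 0.22), Dipk2a (389 to 409 CPM in Normal and 52.6 to 60.1 in ET, log2 difference -2.81, SE 0.055), the sialic-acid receptor Cd33 (297 to 322 CPM in Normal and 58.3 to 66.7 in ET, log2 difference -2.31, SE 0.059), the tight-junction gene Cldn11 (134 to 143 CPM in Normal and 26.8 to 30.9 in ET, log2 difference -2.28, SE 0.061) and Bmyc (46.4 to 49.3 CPM in Normal and 10.1 to 10.5 in ET, log2 difference -2.22, SE 0.082). Ighj1 and Ighm lie in the immunoglobulin heavy-chain locus. All of these were lower in every ET library than in every Normal library.

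Genes of acidic compartments rose in part. Of the 17 tested subunits of the vacuolar proton pump 16 were called higher, with Atp6v0a1 first (36.3 to 40.7 CPM in Normal and 121 to 129 in ET, log2 difference 1.71, SE 0.048). The other, Atp6v1g1, was called lower (81.9 to 86 CPM in Normal and 56.4 to 60.3 in ET, log2 difference -0.53, SE 0.056). Lysosomal hydrolases and membrane proteins were split, 21 of 37 higher and 14 lower. The alpha-galactosidase Gla (14.1 to 17.2 CPM in Normal and 68.5 to 83.2 in ET, log2 difference 2.32, SE 0.088) and the cathepsins Ctsl (108 to 114 CPM in Normal and 487 to 509.95 in ET, log2 difference 2.17, SE 0.038) and Ctsd (582 to 598 CPM in Normal and 1910.04 to 2110.1 in ET, log2 difference 1.77, SE 0.042) rose. The arylsulfatase Arsb fell (249 to 267 CPM in Normal and 98.7 to 109.7 in ET, log2 difference -1.31, SE 0.052). Of autophagy genes 16 of 29 were called higher and 3 lower, with the cargo receptor Sqstm1 first (230.2 to 242 CPM in Normal and 780.1 to 901 in ET, log2 difference 1.85, SE 0.048). Proteasome subunits rose in 27 of 38, with a median of 0.23 (0.15 to 0.27 over the alternative settings).

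Mitochondrial and ribosomal genes leaned lower by small amounts. Of 13 mitochondrially encoded proteins 11 were called lower and none higher (median -0.35), and of 77 nuclear-encoded respiratory chain genes 38 lower and 5 higher (median -0.15, and -0.23 to -0.0995 over the alternative settings). Cytosolic ribosomal proteins were lower in 59 of 83, with Rpl22l1 first (34.3 to 38.9 CPM in Normal and 21.3 to 25.8 in ET, log2 difference -0.67, SE 0.082). None of these genes fell by 2-fold. Ribosome biogenesis (15 of 40 higher and 15 lower) and mitochondrial ribosomal proteins (19 of 78 higher and 27 lower) are to be read against 35.0% and 35.2% of all genes. Among aminoacyl-tRNA synthetases 15 of 37 were called higher, led by the cytosolic Sars (231 to 241 CPM in Normal and 438 to 484 in ET, log2 difference 0.99, SE 0.041) and Hars (122 to 128 CPM in Normal and 223 to 237 in ET, log2 difference 0.87, SE 0.038), and 15 lower, led by the mitochondrial Vars2 (51.8 to 53.9 CPM in Normal and 22.6 to 23.9 in ET, log2 difference -1.17, SE 0.061). Many ribosomal protein genes have pseudogenes, so their counts are uncertain.

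Transport and chromatin genes complete the lists. Of 170 tested solute carriers 92 were called higher, 6 of them through treated libraries only, and 42 lower. Slc6a4, the serotonin transporter, rose (0.0947 to 0.288 CPM in Normal and 158 to 166 in ET, log2 difference 10.01, SE 0.13, adjusted p = 1.1e-14). It is among those 6, so the filter set its direction. The endosomal peptide transporter Slc15a3 rose (21.9 to 25.9 CPM in Normal and 659 to 729 in ET, log2 difference 4.85, SE 0.072). The sodium-proton exchanger Slc9a9 fell (87.2 to 91 CPM in Normal and 6.71 to 7.37 in ET, log2 difference -3.67, SE 0.085). Rab15 rose (0.347 to 0.706 CPM in Normal and 86.2 to 100.4 in ET, log2 difference 7.44, SE 0.13), in a family where 16 of 40 were called higher and 16 lower. ABC transporters had 9 of 22 higher and 9 lower. Of 40 chromatin and DNA methylation enzymes 23 were called lower, with the maintenance methyltransferase Dnmt1 first among the abundant ones (852 to 869 CPM in Normal and 434 to 452 in ET, log2 difference -0.95, SE 0.03), and 7 higher. Clock genes were split, 6 of 16 higher and 7 lower, with the repressor Bhlhe41 lowest (42.7 to 50.4 CPM in Normal and 7.84 to 9.52 in ET, log2 difference -2.36, SE 0.10) and Nfil3 highest among the abundant members (10.3 to 14.3 CPM in Normal and 28.7 to 31.7 in ET, log2 difference 1.32, SE 0.10).

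**Figure D4:**
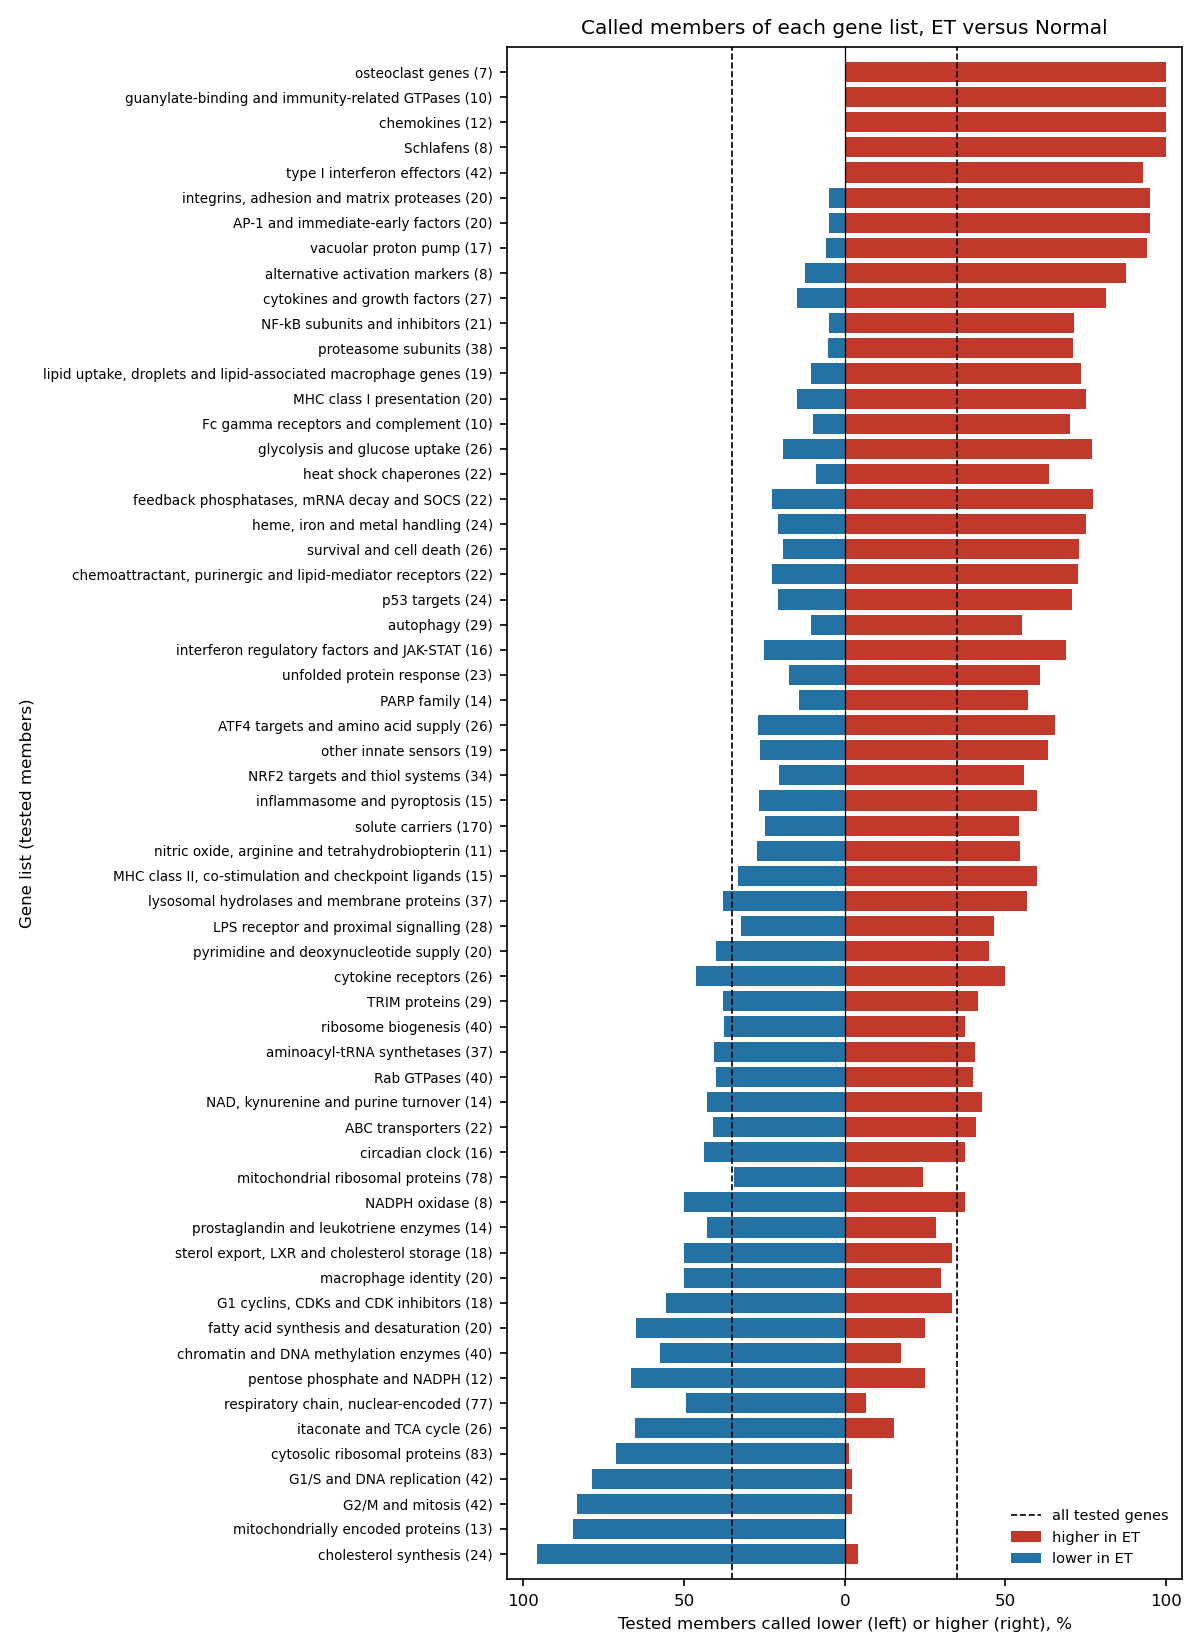
Share of the tested members of each of the 60 gene lists that were called higher (red, right) or lower (blue, left) in ET, with the number of tested members in brackets and dashed lines at the shares over all tested genes, 35.0% higher and 35.2% lower. The shares include members that passed the filter only through treated libraries, 8 of the 12 chemokines among them. Chemokines, interferon families and AP-1 factors stand at the top, and cholesterol synthesis, mitochondrially encoded, division and ribosomal protein genes at the bottom.

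Some motifs were in a larger share of the promoters of genes at least 4-fold higher than of all promoters. Searched on both strands were kB as GGG, any 2 bases and then TTTCC or TTCCC, ISRE as GAAA on both sides of any 2 bases, AP-1 as TGANTCA, CRE as TGACGTCA, a sterol-response form as TCACNCCAC, E2F as TTTCCCGC, CCAAT, and TATA as TATAAA, in 250-base windows of the 8267 tested genes with a RefSeq promoter. ISRE matches were in 2.79% of all these promoters and in 10.9% of the 433 of genes at least 4-fold higher. AP-1 matches were in 4.10% and 12.9%, kB matches of either form in 3.36% and 6.24%, and TATA matches in 5.94% and 12.01%. E2F matches were in 2.01% and 0.231%, and CCAAT boxes in 37.4% and 33.3%. By list, 12 of 32 interferon effector promoters and 7 of 8 promoters of guanylate-binding and immunity-related GTPases held an ISRE match, and 4 of 7 chemokine and 7 of 18 NF-kB list promoters held a kB match. CCAAT boxes were in 15 of 17 cholesterol synthesis and 28 of 35 G2/M promoters. The sterol-response form was in 1 of the 17, that of Hmgcs1. These are counts of letters with no test, and no match says only that the letters are not in the window.

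The reading of the labels decides which treated group had the extract, so the direct difference between M and ET is given here with the same fit. M and ET differed for 1048 genes (9.08%), 573 of them higher in M (4.97%) and 475 lower (4.12%). These counts depended on single libraries. Without ET replicate 3 they were 1121 and 707, without ET replicate 1 they were 265.0 and 284, without ET replicate 2 they were 292 and 244, and without M replicate 1, 2 or 3 they were 293 and 268, 368 and 313, and 290 and 247. Of the 1048 genes, 977 kept their call and direction without ET replicate 3.

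Inflammatory genes that were higher in M included Il6 at 368, 336 and 316 CPM (log2 difference 0.77, SE 0.09, adjusted p = 0.000598), Il1b at 756, 741 and 678 (log2 difference 0.84, SE 0.052, adjusted p = 1.94e-06) and Ptgs2 at 1895, 1616 and 1579 (log2 difference 0.76, SE 0.068, adjusted p = 3.1e-05). For each of these genes every M library lay above every ET library. The share of all tested genes whose M and ET libraries lay apart was not counted. Ccl22 was higher still, at 1956, 1954 and 1705 CPM against 715, 834 and 666 (log2 difference 1.34, SE 0.10, adjusted p = 8.46e-06), and so were Il11 at 81.5, 83.2 and 79.2 (log2 difference 1.89, SE 0.082, adjusted p = 1.1e-06) and Ccr7 at 48.5, 49.5 and 41.8 (log2 difference 1.96, SE 0.12, adjusted p = 6.28e-06). Tnf went the other way, at 429, 479 and 472 CPM (log2 difference -0.36, SE 0.06, adjusted p = 0.00323), and Nos2, at 318, 344 and 329.8, was not called (log2 difference 0.05, SE 0.043, adjusted p = 0.542). Of the other genes with the largest difference, the matrix cross-linking transglutaminase Tgm2 (61.2 to 69.95 CPM in M against 18.6 to 21.7 in ET), Crispld2 (34.6 to 41.8 against 8.14 to 13.3), the stress-hormone binding protein Crhbp (47.9 to 54.5 against 11.4 to 12.9) and Ramp3 (9.38 to 10.2 against 1.16 to 3.09) were higher in M.

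The genes with the largest difference in the other direction were lower in M than in ET. They were Ptgr1, which inactivates leukotriene B4 and prostaglandins (30.2 to 34.6 CPM in M against 76.7 to 86.7 in ET), the urokinase gene Plau (47.3 to 50.9 against 108 to 119), the carbonyl reductase Cbr3 (4.27 to 4.81 against 7.57 to 9.96), Angptl2 (71.7 to 72.5 against 126 to 133), the biliverdin reductase Blvrb (16.1 to 20.5 against 29.2 to 32.3) and Gpnmb (424 to 459 against 677 to 788). Hmox1 was lower in M as well, at 477, 509 and 491 CPM (log2 difference -0.71, SE 0.035, adjusted p = 6.48e-07). For Cbr3 and Blvrb the reading decides the direction against Normal. Cbr3 measured 8.14, 8.07 and 8.43 CPM in Normal and 8.92, 9.96 and 7.57 in ET (log2 difference 0.1, adjusted p = 0.489), and with M in place of ET the log2 difference was -0.83 (adjusted p = 8.57e-05, against 0.165 to 0.972 in the other settings). Blvrb rose in ET (log2 difference 0.43, SE 0.085), and with M in place of ET it was -0.34 (adjusted p = 0.00351, the highest of its 19 settings, the lowest being 1.96e-06).

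By list, 18 of 24 cholesterol synthesis genes were called higher in M than in ET and none lower, a count that stayed between 16 and 18 with any 1 library left out. Hmgcs1 was at 126, 115 and 117 CPM in M (log2 difference 0.54, SE 0.052, adjusted p = 5.29e-05), between ET and Normal. Of the interferon effectors 18 of 42 were higher in M and none lower, falling to 11 without ET replicate 1. Of the NF-kB list 10 of 21 were higher and none lower, falling to 6 without M replicate 1. Of the unfolded protein response 11 of 23 were higher and none lower, falling to 7 without ET replicate 1 and 6 without M replicate 3. Of the NRF2 list 13 of 34 were lower and 1 higher, with 8 lower without ET replicate 2 or M replicate 3. Of the lysosomal list 11 of 37 were lower and none higher, with 7 lower without ET replicate 1 or M replicate 2, 6 without ET replicate 2 or M replicate 3, and 17 without ET replicate 3. Of the cytokine list 10 of 27 were higher and 2 lower, and of the heme, iron and metal list 8 of 24 were lower and none higher.

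**Figure D5:**
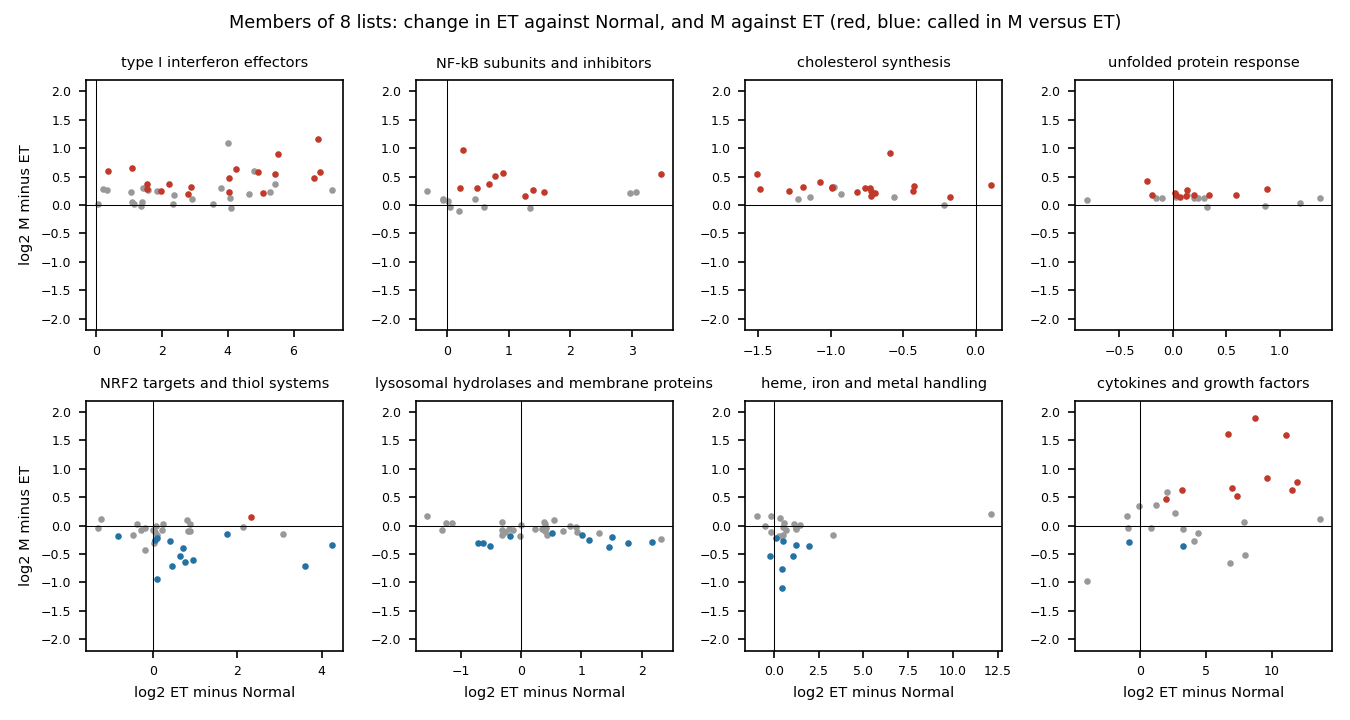
Tested members of 8 lists, each point 1 gene, with the log2 difference of ET minus Normal on the horizontal axis (drawn at its lower bound where Normal had 0 counts, scale differing between panels) and of M minus ET on the vertical axis, and genes called higher (red) or lower (blue) in M than in ET. Cholesterol synthesis genes, all but 1 of 24, lie left of 0 and 18 are called higher in M, and 13 NRF2 genes are called lower in M.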

How the data were processed

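RNA was measured by poly(A)-selected, dUTP-based RNA-seq in 9 libraries of RAW264.7 cells, 3 in each of the groups Normal, ET and M. Columns were tied to samples by the column names that the labels give. The authors deposited read counts per gene and, beside them, FPKM values for the same genes, per the file headers. The submitters' processing notes name cutadapt 1.9, HISAT2 2.2.1, StringTie 2.1.6, DESeq2 and edgeR. The counting tool, its strand setting and the genome build are not given in the sources used here, so overlapping and antisense genes cannot be told apart, and reads of near-identical copies may be split.

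A gene entered the tests where 3 or more of the 9 libraries reached an FPKM of 1 (11536 genes). Counts were tested with edgeR 4.0.16 in R 4.3.3 (TMM factors, quasi-likelihood test, 1 fit over 9 libraries, Benjamini-Hochberg adjustment over 11536 genes, threshold 0.05). Standard errors are the log2 difference divided by the square root of F. Values set as "at least" use a floor of 3 counts per library. The named genes are a panel of 25 genes, in each list the 3 called genes with the largest change in its main direction and the 1 in the other, the 10 largest gains and losses of FPKM, the 8 largest rises and falls of expressed genes, and the 6 largest differences of M from ET each way. Others were named after their values were seen. Lists and members were chosen with earlier results of these data known. On counts simulated for ET against Normal over 11536 genes, the test recovered 74.24%, 96.97% and 98.53% of genes changed 1.5-fold, 2-fold and 4-fold, and 7.692% of 195 calls were false. Only 66, 66 and 68 genes were changed by these folds, up or down at random, whereas 70.2% of genes were called in the data. The rates are those of that setting and may differ in the data.

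Alternatives were other size factors, none, other filters, DESeq2 1.42.0, limma 3.58.1 on log2 FPKM with a pseudocount, the replicate number as a block, the 6 libraries alone, each library left out, and the exchanged reading. No value column was left out. Promoters came from a RefSeq table (GRCm38.p6), which matched 8267 of the tested genes. Groups of 3 libraries were not put to an outlier test. Some genes of the lists are not reported here by name.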

Additional observations from a re-analysis of the deposited data

How the results depend on the processing

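The numbers of genes higher (3869 to 4054) and lower (3719 to 4057) in ET than in Normal stayed near the 4037 and 4066 reported when any 1 library was left out, as did those past 2-fold, 1236 to 1273 higher and 571 to 622 lower. Without ET replicate 3, 7645 of the 8103 called genes kept their call and direction. Testing genes with no FPKM filter gave 2294 genes at least 2-fold higher, and a filter on counts alone gave 2259 higher and 909 lower past 2-fold, with more genes tested. limma on log2(FPKM + 1) gave 391 lower past 2-fold. Scaling by library totals alone gave 3473 higher and 4770 lower. The difference of M from ET depended more on the processing. Without a filter it had 345 genes higher and 270 lower, with DESeq2 895 and 787, with limma on log2(FPKM + 0.1) 339 higher, and with 1 library left out 265.0 to 1121 higher and 244 to 707 lower. The causes were not tested. No pairing by number was seen between Normal and ET, where deviations of same-numbered libraries correlated at 0.00985, -0.0502 and -0.000302. Those of same-numbered ET and M libraries correlated at 0.0756, 0.0373 and 0.0309, against -0.0571 to 0.0233 for differently numbered ones. Whether libraries of the same number were prepared together was not tested. With the replicate number as a block, 4011 genes were higher and 4028 lower, 1245 and 611 past 2-fold, and 508 and 414 for M against ET. With the M columns in place of the ET columns, 4101 were higher and 3978 lower than in Normal, 1226 and 609 past 2-fold, and Cbr3 (-0.83, adjusted p = 8.57e-05) and Blvrb (-0.34, adjusted p = 0.00351) reversed. The difference of M from ET for single genes was not run under that exchange, which only turns its sign. Over the single genes named, 5156 values of ET against Normal under these settings kept direction and side of the threshold, 27 lost their call and 2 gained one with the direction kept, and the 2 of Cbr3 and Blvrb reversed, Cbr3 being called only with the M columns. Those that lost it belong to Hsd17b7, Rpl41, Csnk1e, Birc2 and Plau, and those that gained it to Tlr4. Of the list medians 1141 stayed and 94 moved, among them those of the NRF2 list (0.0952) and the unfolded protein response (0.299) with the M columns. Depth limits genes unread in Normal, whose ratio is known only from below.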

Other observations

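Genes that were off in one group and on in the other formed 2 unequal sets. With FPKM under 0.1 in every Normal library and at least 1 in every ET library there were 125 genes, 23 of them at least 10 in every ET library. By level the 23 were led by Csf3 at 435 ± 34.8 FPKM (SD, n = 3). Among them were genes with no place in the lists used for inflammation. Urah, an enzyme of uric acid breakdown, was at 34.2 FPKM in ET, Slc6a4, the serotonin transporter, at 32.5, Edn1, which encodes the vasoconstrictor endothelin 1, at 25.3 (at least 1162-fold higher by CPM), the glutathione transferase Gstt4 at 19.7 and the membrane glycoprotein Pdpn at 18.3. The reverse set, at least 1 FPKM in every Normal library and under 0.1 in every ET library, had 5 genes. Siglech, a receptor best known from plasmacytoid dendritic cells, had 11.2 CPM in Normal and no read in ET, at least 201-fold lower (adjusted p = 1.73e-08 by edgeR), and Igf1, which encodes insulin-like growth factor 1, was at 1.27 FPKM in Normal and 0.0736 in ET. The others were Cmah, Cbr2 and the predicted gene Gm16332. These sets were defined on the values themselves and carry no test.

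Some called genes lay in runs of neighbours. Taking tested genes in the order of the deposited coordinates (build not given in the sources used here), there were 23 runs of 4 or more in which every gene was called at least 2-fold higher, and 3 in which every gene was called at least 2-fold lower. Some members of the rising runs, such as Cstdc4, Csta3, Stfa3 and Batf, passed only through treated libraries, so the filter set their direction. The count of 23 includes runs that hold such members, whose number is not given here. On chromosome 11 from 83525778 to 83752642 lay Ccl5, Ccl9, Ccl3, Ccl4, Wfdc17 and Wfdc21, with log2 differences of 3.34 to 8.44. On chromosome 3 from 142530342 to 142638008 lay Gbp7, Gbp3, Gbp2b and Gbp2, at 6.19 to 8.2. A run of 5 on chromosome 16 from 36184212 to 36666081 held the cysteine protease inhibitor genes Cstdc4, Csta3, Stfa2 and Stfa3, whose copies are close enough for reads to be split, and the co-stimulatory gene Cd86. On chromosome 12 from 85473890 to 85709087 lay the AP-1 family genes Fos, Jdp2 and Batf with a predicted gene between them. Among the falls, 6 immunoglobulin heavy-chain segments on chromosome 12 from 113406604 to 113429833 fell by 3.19 to 6.34 on the log2 scale, and a run on chromosome 19 from 10062765 to 10202384 held Fads2 and Fads1 with 2 small neighbours, falling by 1.12 to 2.00. Overlapping transcripts within a run share reads that unstranded counting would not separate. Whether runs of this length are more frequent than gene order alone gives was not tested.

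By the families in the deposited annotation, 751 transcription factors were tested, with 188 called higher and 353 lower (median log2 difference -0.20). The basic leucine zipper family had 27 of 39 higher and 9 lower (median 0.93), from Batf, Fosl1, Maff and Atf3 at the top to Dbp and Bach1 at the bottom. Batf and Fosl1 were under 1 FPKM in every Normal library, so the filter set their direction. The counts and medians by family include such members, whose number is not given here. Of 299 C2H2 zinc fingers 42 were higher and 141 lower, of 35 basic helix-loop-helix factors 9 higher and 21 lower, and of 10 E2F family factors 1 higher and 8 lower. Genes were also grouped by the first transcript type that the deposited annotation lists for them. Types counted as long non-coding included processed transcripts and retained introns. Of 1411 genes with such a type 476 were higher and 535 lower, close to the shares over all genes. Of 935 with a pseudogene type 165 were higher and 208 lower. A protein-coding gene can be listed first under another type, as Clec4d is under nonsense-mediated decay, so these are not clean gene classes.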
